A study of Mus musculus with 2 samples.

Results

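The cells described here were Cajal-Retzius (CR) cells of the postnatal mouse hippocampus that carried RNA of *Chst8* or *Alkal2* and little RNA of *Cck*. A cell barcode entered the description with at least 2000 unique molecular identifiers (UMIs, each counted as 1 captured RNA molecule), at most 8% of them from mitochondrial genes, at least 5 UMIs of *Reln*, and nuclear oxidative phosphorylation genes under 1.8% of its UMIs. Of these barcodes, those with at least 2 UMIs summed over *Chst8* and *Alkal2* and fewer than 2 UMIs of *Cck* are called *Chst8* or *Alkal2* cells, and all others are called the other CR cells. The *Chst8* or *Alkal2* cells numbered 83 of 916 in the control library (9.06%, exact binomial 95% interval 7.28 to 11.1) and 33 of 349 in the knockout library (9.46%, 6.6 to 13.0), or 116 of 1265 in all.

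Both libraries came from the hippocampus at postnatal day 14. The control was conditional heterozygous (*ΔNp73-Cre; Cic flox/+; tdT*) and the knockout was conditional knockout (*ΔNp73-Cre; Cic flox/flox; tdT*), so the control animals also carried the Cre driver, a floxed allele of the repressor gene *Cic* and the tdTomato reporter. Each genotype was 1 library of 4 pooled littermates, 3 males and 1 female for the control and 2 males and 2 females for the knockout, and living cells with tdTomato fluorescence were sorted from each pool. The reporter marks cells by the *ΔNp73* promoter, and *Cic* was deleted only where that driver had been active. With 1 library per genotype there was no replicate check and no test between genotypes. All intervals are 95% intervals that cover counting error only, and cells of a library are not replicates.

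CR cells are early-born glutamatergic neurons of the cortical and hippocampal marginal zones that secrete reelin, the glycoprotein encoded by *Reln* that guides the layering of other neurons. Most of them die in the first postnatal weeks, and a part of the hippocampal population persists for longer. *Chst8* encodes a Golgi enzyme that adds sulfate to N-acetylgalactosamine on the sugar chains of certain glycoproteins, including pituitary hormones. *Alkal2* encodes a secreted ligand that activates the receptor tyrosine kinases ALK and LTK, and *Gabrg3* encodes the gamma 3 subunit of the GABA-A receptor, the chloride channel opened by GABA.

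On GRCm38, *Chst8* lies on the minus strand of chr7:34674468-34812711, *Alkal2* on the plus strand of chr12:30884322-30893854 and *Gabrg3* on the minus strand of chr7:56716465-57387188. The 250 bases before the RefSeq start of *Chst8* and *Alkal2* are shown because these genes choose the cells, with those of *Pcsk1*, a prohormone convertase gene among the genes highest in the chosen cells. They were read 5′ to 3′ on the strand of each gene from RefSeq promoters of GRCm38.p6, at chr7:34812712-34812961, chr12:30884074-30884323 and chr13:75089607-75089856. Capitals mark TGACGTCA, the palindromic cyclic AMP response element, and TGACG, the shorter letters that the palindrome contains, searched on both strands.
*Chst8*: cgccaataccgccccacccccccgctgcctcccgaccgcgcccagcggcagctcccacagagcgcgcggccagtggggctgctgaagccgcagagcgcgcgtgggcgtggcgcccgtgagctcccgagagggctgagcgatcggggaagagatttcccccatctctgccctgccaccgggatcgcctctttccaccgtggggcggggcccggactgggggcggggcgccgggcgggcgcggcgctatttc
*Alkal2*: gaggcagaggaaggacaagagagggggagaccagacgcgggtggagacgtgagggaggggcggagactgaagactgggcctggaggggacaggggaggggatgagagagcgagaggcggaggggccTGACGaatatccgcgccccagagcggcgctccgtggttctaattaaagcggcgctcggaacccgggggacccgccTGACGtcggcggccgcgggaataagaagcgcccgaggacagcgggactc
*Pcsk1*: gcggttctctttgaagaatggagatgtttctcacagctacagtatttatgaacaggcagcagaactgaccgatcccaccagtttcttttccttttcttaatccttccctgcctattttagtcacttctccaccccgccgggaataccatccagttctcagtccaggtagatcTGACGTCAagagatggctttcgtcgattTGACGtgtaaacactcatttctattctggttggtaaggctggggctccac
The *Pcsk1* window held 1 TGACGTCA and 3 matches of TGACG, 2 of which are the strands of that palindrome, and the *Alkal2* window held 2 matches of TGACG. Neither was found in the *Chst8* window. Promoters of 9 genes were looked up in all, and *Pcsk1*, shown after its match was seen, was the 1 with TGACGTCA. The windows of *Pde10a* and *Gabrg3* held neither sequence, and those of *Nr4a3*, *Npas4*, *Nr4a1* and *Ppargc1a* held TGACG on 1 strand or the other. Of all 32851 RefSeq promoters of this length, 508 (1.55%) held TGACGTCA and 5836 (17.8%) held TGACG, so a match is a description of these letters and not of a site in use. The octamers TGAATGAA and TGAATGGA, which the protein encoded by *Cic* is known to bind, were in none of these 3 windows and in 355 (1.08%) and 333 (1.01%) of all promoters.

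The CR identity of the chosen cells was read from 8 marker genes, all of which had UMIs in both libraries. *Reln* is among them, and the limit of 5 UMIs fixed its presence in every chosen and other cell. Levels are given as counts per 1000000 (CPM) of the UMIs outside mitochondrial and ribosomal protein genes, summed over the cells of a kind. *Reln* stood at 7902 CPM against 8654 in the others of the control (ratio 0.913, 0.885 to 0.941) and at 7716 against 8375 in the knockout (0.921, 0.879 to 0.966). *Trp73*, whose *ΔNp73* transcript encodes the p73 form made in CR cells, stood lower by more than *Reln* in both libraries, at 330 against 473 CPM (0.697, 0.598 to 0.808) and at 311 against 512 CPM (0.606, 0.475 to 0.763). Droplets of 20 to 100 UMIs, which hold mostly free RNA, held 823 and 854 CPM of *Trp73*, more than either kind of cell, and the part of free RNA in its lower level was not tested. Of the 7 CR markers with at least 200 UMIs in the control, 0 were at least 1.5-fold higher and 0 were at least 1.5-fold lower, where 3.49% and 6.73% of all genes were, with a median ratio of 0.941. In the knockout 6 were compared, 0 were higher and *Trp73* was the 1 that was lower (5.17% and 6.17% of all genes), with a median of 0.844. The limit on oxidative phosphorylation genes had left out the cells high in respiratory genes, and *Pcp4*, a regulator of calmodulin, stood at 195 against 218 CPM (0.895, 0.730 to 1.09) in the control and at 123 against 180 in the knockout (0.687). The same droplets held 3282 and 2927 CPM of *Pcp4*, far more than either kind of cell. The part of free RNA in its level was not tested.

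Markers of other cell types were scarce. All 7 of the GABAergic neuron markers were at 0 in the chosen cells of both libraries. The summed level in the control was 92.4 CPM against 92.3 for astrocyte markers, 66.3 against 65.4 for oligodendrocyte precursors, 40.1 against 41.8 for microglia, 36.6 against 27.8 for granule cells, 29.7 against 25.8 for oligodendrocytes and 20.9 against 26.6 for pyramidal cells. In the knockout these were 103.5 against 91.0, 71.7 against 83.2, 43.8 against 35.7, 39.8 against 37.7, 31.9 against 35.2 and 15.9 against 51.4 CPM in the same order. The defining genes *Gfap*, *Aqp4*, *Olig1*, *Olig2*, *C1qa*, *Tmem119* and *Neurod6* were at 0 in the chosen control cells. The genes captured most from these lists were *Slc1a2* (50 UMIs, 87.2 CPM), *Cspg4* (37 UMIs, 64.5 CPM), *P2ry12* (14 UMIs) and *Mpped1* (10 UMIs). Endothelial markers stood at 62.8 CPM against 34.1 in the control (1.84, 1.25 to 2.65) and at 35.8 against 29.9 in the knockout, where the control value came from 36 UMIs of *Pecam1* with *Cldn5*, *Flt1* and *Kdr* at 0. Mural markers stood at 55.8 against 84.8 CPM (0.658, 0.445 to 0.944) and at 31.9 against 77.3, mainly *Rgs5*, with *Pdgfrb*, *Acta2* and *Vtn* at 0 in the control. Ependymal and choroid plexus markers (6.98 against 4.53 CPM in the control, 3.98 against 6.36 in the knockout), fibroblast markers (14.0 against 9.27, 3.98 against 18.1) and erythrocyte markers (1.74 CPM, 0 in the knockout) were near the limit of detection.

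The 2 genes of the rule were captured at low numbers per cell. The sum over *Chst8* and *Alkal2* had a median of 3 UMIs in the chosen cells of either library and a maximum of 19 in the control and 10 in the knockout. *Chst8* stood at 195 CPM (161 to 235) from 112 UMIs in the control and at 123 CPM (83.9 to 175) from 31 UMIs in the knockout. *Alkal2* stood at 314 CPM (270 to 363) from 180 UMIs and at 358 CPM (288 to 440) from 90 UMIs. *Cck*, which the rule kept low, stood at 10.5 and 27.9 CPM. By construction the other CR cells were low in the first 2 genes, with *Chst8* at 15.0 and 8.32 CPM and *Alkal2* at 20.5 and 19.1 CPM. The droplets of free RNA gave 3.67 and 1.65 CPM of *Chst8* and 17.9 and 16.8 CPM of *Alkal2*. Since these genes chose the cells, their distance from free RNA was fixed by the rule.

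Depth moved with the choice. The chosen cells held 3549 to 17310 UMIs with a median of 6952 in the control, where the other CR cells had a median of 6031, and 2963 to 14510 with a median of 8050 in the knockout, where the others had a median of 6363.5. In the control the share of chosen cells was 4.78% (11 of 230) in cells under 5000 UMIs, 8.64% (44 of 509) from 5000 to below 8000 UMIs and 15.8% (28 of 177) from 8000 UMIs on. In the knockout it was 4.69% (3 of 64), 6.67% (13 of 195) and 18.9% (17 of 90). After every cell was thinned to 2000 UMIs, 87 of 916 control cells (9.50%, 7.68 to 11.6) and 27 of 349 knockout cells (7.74%, 5.16 to 11.1) held at least 1 UMI of *Chst8* or *Alkal2* and none of *Cck*. Under the limits of 2 UMIs used elsewhere, thinning left 29 of 916 (3.17%) and 12 of 349 (3.44%). Neither the unthinned share nor either thinned share differed between the libraries beyond counting error. The median mitochondrial share was 3.23% in the chosen cells against 3.30% in the others of the control, and 3.81% against 3.86% in the knockout. No barcode was shared between the libraries.

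*Chst8* and *Alkal2* were each examined in cells picked for the other gene, over all cells within the quality limits. *Alkal2* stood at 112 CPM in the 44 control cells with at least 2 *Chst8* UMIs and at 39.8 CPM in the 803 cells with none (ratio 2.83, 1.94 to 4.02). In the knockout it stood at 114 CPM in 11 cells and at 46.1 CPM in 318 cells (2.47, 1.15 to 4.76). In the other direction, *Chst8* stood at 75.2 CPM in the 53 control cells with at least 2 *Alkal2* UMIs and at 26.4 CPM in the 779 with none (2.85, 1.82 to 4.32), and at 46.9 against 18.1 CPM in 28 and 292 knockout cells (2.59, 1.14 to 5.36). A threshold of 2 UMIs takes more of the deeper cells, as the shares by depth show. After thinning to 2000 UMIs and choosing on at least 2 UMIs, the control ratio of *Alkal2* was 0.836 from 1 and 74 UMIs, too few to give a direction. Choosing on at least 1 thinned UMI gave 3.17 (1.69 to 5.58) for *Alkal2* and 1.76 (0.727 to 3.67) for *Chst8* in the control and 1.97 (0.228 to 7.74) and 2.58 (0.278 to 11.8) in the knockout. The first of these came from 15 UMIs in 7 cells, and the share of cells with an *Alkal2* UMI was 12.7% (5.27 to 24.5) against 6.27% (4.75 to 8.10) there, with intervals that overlap. At equal depth the joint presence was thus not shown by cells.

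*Gabrg3*, which the rule did not name, was higher in the chosen cells, at 548 CPM (489 to 612) against 331 (316 to 348) in the control and at 418 against 300 CPM in the knockout. The study had already reported high *Gabrg3* in a cluster of CR cells from these same libraries, so its level is no independent check. The ratios were 1.65 (1.46 to 1.87) and 1.39 (1.12 to 1.72). Against other CR cells matched in depth they were 1.91 (1.58 to 2.32) and 1.8 (1.37 to 2.36). In cells of female reading, told by *Xist* against Y-linked genes, the control ratio was 2.43 and the knockout ratio 1.11 (0.775 to 1.55). In cells with at least 2 *Chst8* UMIs against none the control ratio was 1.58 (1.34 to 1.84) and the knockout ratio 2.51 (1.91 to 3.24), and in cells chosen in the same way on *Alkal2* it was 1.22 (1.03 to 1.45) and 1.17 (0.903 to 1.49). In the control at least 1 UMI gave the other order, with 1.37 for *Chst8* and 1.42 for *Alkal2*. Thinned counts there gave 0.899 (0.386 to 1.78) and 0.870 (0.396 to 1.66) with at least 2 UMIs. With at least 1 thinned UMI the ratios were 1.39 (1.02 to 1.87) and 1.17 (0.846 to 1.58) in the control. In the knockout they were 3.13 (1.87 to 4.97) and 1.53 (0.929 to 2.41). The difference between the 2 genes was not tested. With at least 20 *Reln* UMIs per cell the knockout ratio of the chosen cells was 1.14 (0.892 to 1.43), and with at least 2 *Alkal2* UMIs it was 1.28 (0.992 to 1.63), both within counting error.

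CR cells marked by *Cck* and by *Grik1* gave a closer comparison. The other CR cells divided into 175 with at least 2 *Cck* UMIs, 80 *Grik1* cells and 578 remaining cells in the control, and into 56, 30 and 230 in the knockout. *Gabrg3* stood at 548 CPM in the chosen cells, 388 in the remaining cells, 226 in the *Cck* cells and 189 in the *Grik1* cells of the control, and at 418, 347, 180 and 200 CPM in the knockout. Part of the distance from the other CR cells was therefore a low level in the *Cck* and *Grik1* cells. Against the remaining cells alone the control ratio was 1.41 (1.24 to 1.60), and the knockout ratio of 1.2 (0.966 to 1.49) was within counting error. *Pde10a* separated the chosen cells from all 3 other kinds in both libraries, at 916 CPM against 296, 251 and 277 in *Cck*, *Grik1* and remaining cells of the control and at 788 CPM against 362, 497 and 360.5 in the knockout. *Trp73* was lowest in the chosen cells in both libraries, at 330 CPM against 428, 501 and 483.5 in *Cck*, *Grik1* and remaining cells of the control and at 311 against 563, 497 and 502 in the knockout.

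**Figure D1:**
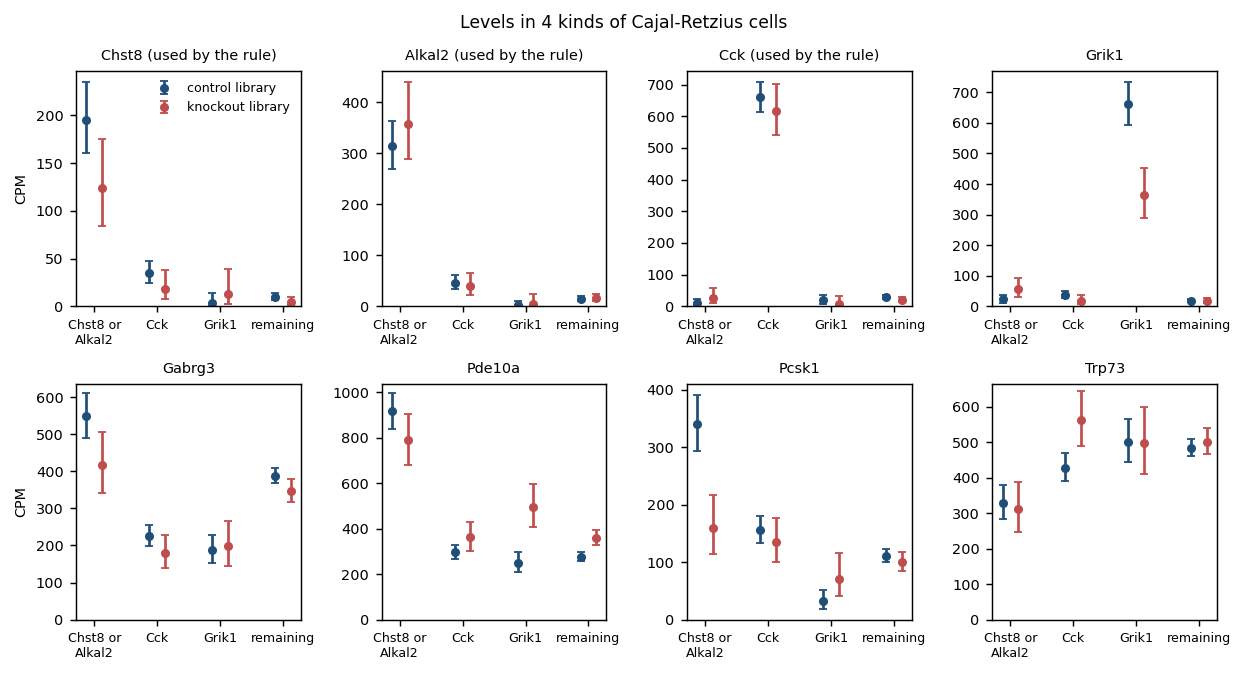
Level of 8 genes (CPM, vertical axes) in *Chst8* or *Alkal2* cells, *Cck* cells, *Grik1* cells and remaining CR cells of the control and knockout libraries, with bars for 95% Poisson intervals; *Chst8*, *Alkal2* and *Cck* were used by the rule, and *Grik1* defines the *Grik1* cells. *Pde10a* is highest in the chosen cells at 916 and 788 CPM and *Trp73* lowest at 330 and 311 CPM, while *Pcsk1* stands well apart in the control at 340 CPM. In the knockout *Pcsk1* stands at 159 CPM beside 135 in the *Cck* cells, within counting error (1.18, 0.761 to 1.82).

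The threshold of 2 UMIs cuts a range, not a gap. Among cells with fewer than 2 *Cck* UMIs, 569 control cells held no UMI of *Chst8* or *Alkal2*, 89 held 1, 38 held 2, 19 held 3 and 26 held 4 or more, and the knockout cells numbered 226, 34, 15, 4 and 14. *Pde10a* stood at 246, 448, 843, 992 and 966 CPM over these steps in the control. In the knockout it stood at 338, 617, 541, 863 and 997 CPM. Cells just outside the threshold already held more *Pde10a* than cells with no UMI in either library. *Pcsk1* stood at 92.3, 153, 385, 328 and 285 CPM in the control and at 81.7, 184, 64.2, 50.8 and 261.5 CPM in the knockout, where the small numbers of cells gave no steady order. *Trp73* went the other way in the control, at 495, 429, 340, 279 and 348 CPM, and stood at 515, 421, 357.5, 457 and 245 CPM in the knockout. *Gabrg3* did not climb to the top step in the control, where it stood at 340, 496.5, 664, 590.5 and 359 CPM, and in the knockout it stood at 326, 335, 275, 457 and 539 CPM, highest at the top step.

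**Figure D2:**
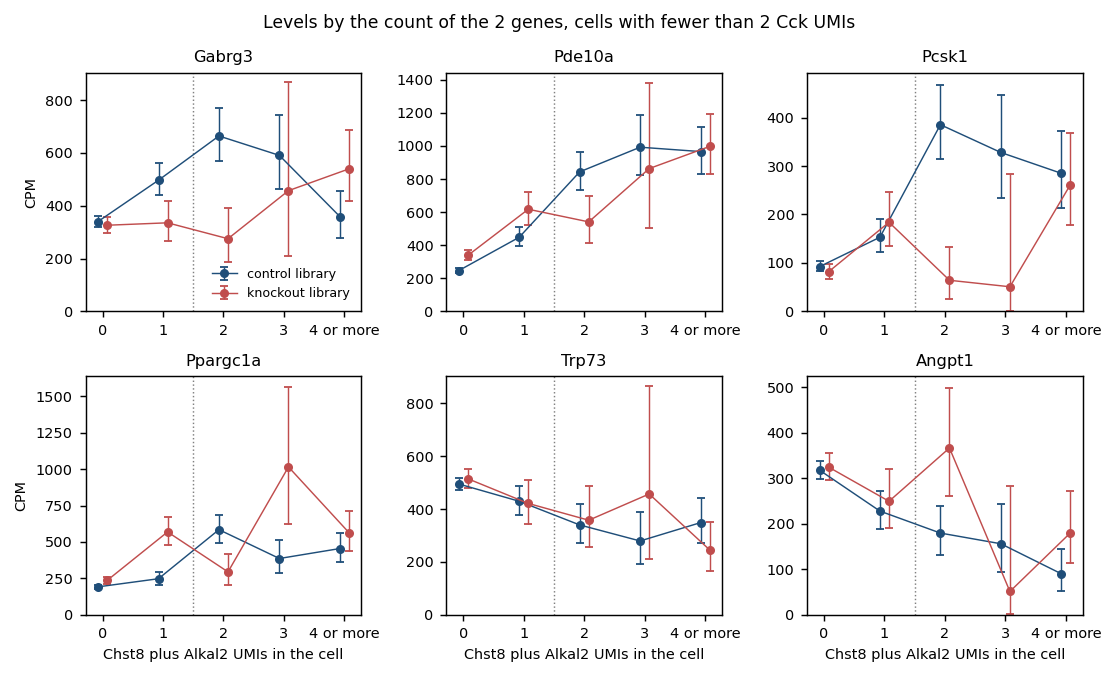
Level of 6 genes (CPM, vertical axes) in CR cells with fewer than 2 *Cck* UMIs by their number of *Chst8* and *Alkal2* UMIs (horizontal axis, 0 to 4 or more), for the control and knockout libraries; bars are 95% Poisson intervals and the dotted line marks the threshold of the rule. *Pde10a* goes from 246 CPM at no UMI to 966 CPM at 4 or more in the control and from 338 to 997 CPM in the knockout.

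Across all genes, a gene was compared where it had at least 200 UMIs in a library, and it was called higher or lower where the ratio of CPM was at least 1.5-fold. In the control 173 of 4964 genes (3.49%) were higher in the chosen cells and 334 (6.73%) were lower. In the knockout 114 of 2203 (5.17%) were higher and 136 (6.17%) were lower. The chosen cells are also deeper, and against others matched in depth 52 of 959 genes were higher and 16 were lower in the control, and 38 and 24 of 525 in the knockout. That comparison also holds fewer cells and genes. The median ratio over all genes was 0.989 and 1.00. Since the rule was drawn from the same cells, these counts describe the cells and test nothing. The genes called in the control were then read in the knockout library, which the calls had not used, where they had at least 50 UMIs: 134 of the 173 higher genes (77.5%) were above 1 there, where 47.1% of all 4960 such genes were, with a median ratio of 1.28. Of the 332 lower genes with a knockout value, 212 (63.9%) were below 1, where 52.9% of all genes were, with a median of 0.854. The same rule chose the cells of both libraries, so genes that follow *Cck* or depth can agree through the rule. How much of the agreement this makes up was not tested.

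*Pde10a*, the phosphodiesterase that breaks down cyclic AMP and cyclic GMP, led the higher genes at 916 CPM (839 to 997) against 279 (264 to 294) in the control and 788 against 376 CPM in the knockout, ratios of 3.28 (2.97 to 3.63) and 2.10 (1.78 to 2.46). It was also captured in more cells, since after thinning to 2000 UMIs 66.3% of chosen cells held a *Pde10a* UMI against 25.8% of the others in the control, and 57.6% against 38.0% in the knockout. *Pcsk1*, which cuts prohormones in secretory granules, stood at 340 against 113 CPM in the control (3.02, 2.55 to 3.55) and at 159 against 104 in the knockout (1.53, 1.07 to 2.16). *Ppargc1a*, the coactivator of mitochondrial gene programmes, stood at 499 against 217 CPM (2.30, 2.01 to 2.62) and at 482 against 272 (1.77, 1.44 to 2.16). This ratio differed by sex reading in the control, where it was 0.968 in female cells, of which 15 were chosen, and 2.77 in male cells.

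*Sorcs1*, a sorting receptor of synaptic proteins, stood at 181 against 69.4 CPM in the control (2.61, 2.08 to 3.26) and at 127 against 44.0 in the knockout (2.89, 1.87 to 4.37). *Slc6a17*, a vesicular transporter of neutral amino acids, stood at 262 against 100 CPM (2.61, 2.16 to 3.14) and at 191 against 93.0 (2.06, 1.47 to 2.83). *Dclk1*, a microtubule-binding kinase, stood at 324 against 150 CPM (2.16, 1.83 to 2.54) and at 247 against 110 (2.24, 1.66 to 2.98). These 3 genes gave ratios above 2 in both libraries. *Pcdh10*, a homophilic adhesion protein of the protocadherin family, stood at 141 against 48.3 CPM (2.92, 2.25 to 3.77) and at 95.6 against 32.8 (2.91), but 1 cell gave 45.8% of its UMIs in the chosen knockout cells. *Brinp3* stood at 283 against 124 CPM (2.28, 1.91 to 2.71) and at 215 against 115 (1.87, 1.36 to 2.52).

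*Dner*, a transmembrane protein with repeats like those of Notch ligands, and *Dscam*, an adhesion protein of neurite spacing, were higher mainly in the control. The 14 genes were picked on their control ratios, a choice that favours smaller ratios in the knockout. *Dner* stood at 734 against 329 CPM (2.23, 2.00 to 2.48) and at 398 against 316 in the knockout (1.26, 1.01 to 1.56). *Dscam* stood at 446 against 222 CPM (2.01, 1.75 to 2.30) and at 247 against 221 (1.12, 0.843 to 1.46), where the knockout difference was within counting error. The noncoding gene *1700016P03Rik* stood at 370 against 130 CPM (2.84, 2.42 to 3.32) and at 259 against 126 (2.05, 1.54 to 2.70). Its knockout ratio was 1.04 in female cells and 4.31 against others matched in depth, and 1 cell gave 24.6% of its chosen knockout UMIs. The immediate early transcription factor genes *Nr4a3*, *Npas4* and *Nr4a1* completed the 14, and are given with their group below. Apart from *Ppargc1a*, all of these 14 genes had control ratios above 1 under each of the 19 other settings tried.

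Of the genes lower in the chosen cells, *Penk*, the precursor of the enkephalin opioid peptides, gave 4 UMIs against 205 in the control, or 6.98 against 40.4 CPM (0.173, 0.0466 to 0.449), and 15.9 against 78.8 CPM in the knockout (0.202, 0.0544 to 0.528). *Penk* was highest in *Cck* cells, at 65.8 and 140 CPM, and stood at 37.2 and 66.0 CPM in the remaining cells and at 7.54 and 57.7 CPM in the *Grik1* cells, which in the control were as low as the chosen cells. *Pdzrn4* stood at 24.4 against 111 CPM (0.220, 0.119 to 0.372) and at 43.8 against 106 (0.412, 0.203 to 0.753). *Eya4*, a transcriptional coactivator and phosphatase, stood at 33.1 against 108 CPM (0.306, 0.183 to 0.483) and at 43.8 against 100 (0.436, 0.215 to 0.798). The long intergenic RNA *Gm34455* gave 3 UMIs against 234, or 5.23 against 46.1 CPM (0.113, 0.0232 to 0.336), and 23.9 against 92.5 CPM from 6 and 189 UMIs (0.258, 0.0936 to 0.573). Free RNA droplets held 123 and 183 CPM of *Gm34455*, more than either kind of cell, and the part of free RNA in its ratio was not tested. These 4 genes were lower in both libraries with intervals below 1, and their ratios stayed below 1 under each of the 19 other settings. In female knockout cells the ratios of *Eya4* and *Pdzrn4* were 0.808 and 0.720, no longer past 1.5-fold. The limit on *Cck* bore on several of the lower genes, since without it the control ratio was 0.481 for *Penk*, 0.663 for *Pdzrn4*, 0.480 for *Eya4* and 0.388 for *Ntrk3*, and against others with fewer than 2 *Cck* UMIs the knockout ratio of *Pdzrn4* was 0.574 (0.280 to 1.06).

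*Angpt1*, a secreted ligand of the receptor TIE2, stood at 145 CPM (115 to 179) against 327 in the control (0.443, 0.351 to 0.552) and at 251 against 326 in the knockout, where 1 cell gave 44.4% of its UMIs. *Ntrk3*, the receptor of neurotrophin 3, stood at 6.98 against 38.8 CPM (0.180, 0.0485 to 0.467) and at 1 UMI in the knockout, 3.98 against 13.2 CPM. *Kcnmb2*, an auxiliary subunit of calcium-activated potassium channels, stood at 43.6 against 122 CPM (0.357, 0.229 to 0.532) and at 63.7 against 93.0 (0.685, 0.384 to 1.14). *Cntnap5b* and *Slc43a2* were lower in the control (0.239 and 0.272) and not in the knockout (1.01 and 1.08). *Grik1*, a kainate receptor subunit, stood at 22.7 against 90.1 CPM (0.252, 0.133 to 0.435) and at 55.7 against 56.3 (0.990), with 64.3% of the chosen knockout UMIs in 1 cell. The *Grik1* cells, which are set by this gene, are among the others here.

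**Figure D3:**
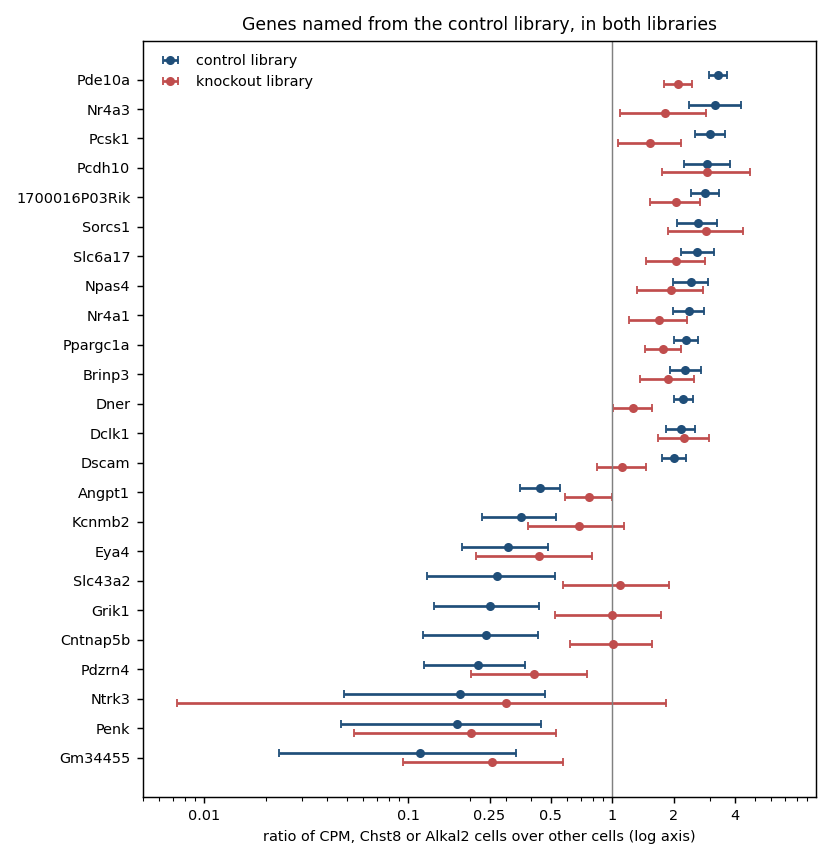
Ratio of CPM in *Chst8* or *Alkal2* cells over the other CR cells (horizontal log axis) for the 14 highest and 10 lowest genes of the control, in the control and knockout libraries, with 95% intervals of the ratio. *Pde10a* gives 3.28 and 2.10 and *Penk* 0.173 and 0.202, while *Cntnap5b* (0.239 and 1.01) and *Slc43a2* (0.272 and 1.08) lie apart in the 2 libraries.

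Immediate early genes, whose transcription follows neuronal activity and also tissue dissociation, stood higher as a group. Of 15 compared in the control, 7 were higher and 2 were lower (46.7% and 13.3% beside 3.49% and 6.73% of all genes), with a median ratio of 1.5 beside 0.989 over all genes. Of 9 compared in the knockout, 3 were higher and 0 were lower (33.3% and 0% beside 5.17% and 6.17%), with a median of 1.39. Their summed level was 3291 against 2302 CPM in the control (1.43, 1.36 to 1.5) and 3169 against 2154 in the knockout (1.47, 1.36 to 1.59). *Nr4a3* stood at 112 against 34.9 CPM (3.20, 2.36 to 4.28) and at 87.6 against 48.5 (1.81, 1.08 to 2.89). *Npas4*, an activity-dependent factor, stood at 225 against 92.8 CPM (2.42, 1.98 to 2.95) and at 151 against 77.8 (1.94, 1.33 to 2.78). *Nr4a1* stood at 277 against 117 CPM (2.36, 1.97 to 2.82) and at 187 against 111 (1.69, 1.21 to 2.33). Under the other settings the knockout ratio of *Npas4* ran from 1.12, in cells chosen on counts thinned to 2000 UMIs, to 2.91. That of *Nr4a1* ran from 1.10, with at least 2 *Chst8* UMIs, to 1.89.

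The group was not uniform. *Ier2* (0.581) and *Ier5* (0.642) were lower in the control, and *Jun* stood at 78.5 against 115 CPM there (0.679, 0.490 to 0.921) and at 175 against 143 in the knockout (1.22, 0.869 to 1.68). *Btg2*, the most abundant of the group at 504 and 502 CPM, had ratios of 1.5 and 1.49. *Egr2*, *Egr3* and *Egr4* were at 0 in the chosen cells of both libraries. The free RNA droplets held 7106 and 6755 CPM of these genes, more than either kind of cell, and the control ratio of *Nr4a1* was 3.47 after free RNA was subtracted. The part of free RNA in the difference of the group was not tested. After thinning to 2000 UMIs, 15 of 83 chosen control cells (18.1%, 10.5 to 28.0) had more than 9 UMIs of these genes against 75 of 833 others (9.0%, 7.15 to 11.2), and 4 of 33 (12.1%, 3.40 to 28.2) against 30 of 316 (9.49%) in the knockout. The limit of 9 UMIs was set to mark the top 10% of cells, so these shares are small by construction. The median cell held 6 UMIs of these genes against 4 in the others of the control and 5 against 3 in the knockout.

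Of 5 GABA-A receptor subunit genes compared, 2 were higher and 0 lower in the control (median 1.29), where all genes gave 3.49% and 6.73%, and 1 was higher and 0 lower in the knockout (median 1.28), where all genes gave 5.17% and 6.17%. *Gabrg3*, described above, is among them. *Gabrb2*, another subunit gene, had ratios of 1.29 (1.05 to 1.56) and 1.53 (1.06 to 2.15), and *Gabra2* had 0.782 and 0.692. Ionotropic glutamate receptor genes gave 0 higher and 3 lower of 8 in the control (37.5% lower beside 6.73% of all genes, median 0.782) and 1 higher and 1 lower of 7 in the knockout (median 0.889). The delta receptor *Grid1* stood at 27.9 against 80.6 CPM in the control (0.346, 0.196 to 0.569) and at a ratio of 0.563 (0.294 to 0.986) in the knockout. The AMPA receptor subunit *Gria2* had ratios of 1.05 and 1.29 (1.14 to 1.45), and *Grin1*, the obligatory NMDA receptor subunit, had 1.13 and 1.94 (1.57 to 2.37). Summed over the group the control ratio was 0.834 (0.796 to 0.873) and the knockout ratio 1.02 (0.958 to 1.09). Of the metabotropic receptors 2 were compared in the control, 0 of them called, with a median of 0.802 and ratios of 0.925 (0.587 to 1.40) for *Grm3* and 0.678 (0.418 to 1.05) for *Grm2*.

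The biochemical partners of the rule's genes were sparse. Sulfotransferases other than *Chst8* summed to 206 against 190 CPM in the control (1.08, 0.885 to 1.31) and to a ratio of 0.986 in the knockout, and *Chst2*, the 1 other gene compared, had ratios of 1.26 (0.977 to 1.61) and 1.28. *Chst9*, the close relative of *Chst8* with the same reaction, was at 0 in the chosen control cells. Of the ALK and LTK pathway, the receptor *Alk* gave 6 UMIs in the chosen control cells (10.5 against 9.46 CPM) and 8 UMIs in the knockout cells (31.9 against 45.0), and *Ltk* and the other ligand *Alkal1* were at 0. *Ptn* and *Mdk*, secreted growth factors also tied to ALK, stood at ratios of 0.998 and 0.629 (0.337 to 1.08) in the control. Receptor RNA was thus near the limit of detection in the chosen cells.

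Transcription factors of CR cells gave 1 higher and 3 lower of 14 in the control (7.14% and 21.4% beside 3.49% and 6.73% of all genes, median 0.972) and 0 higher and 2 lower of 8 in the knockout (25% lower beside 6.17%, median 0.922). *Zic2*, a zinc finger factor of the forebrain midline, stood at 115 against 70.8 CPM (1.63, 1.23 to 2.12) and at 139 against 63.6 in the knockout (2.19, 1.46 to 3.20, from 165 UMIs, below the minimum). *Ebf1* (0.531), *Barhl2* (0.534) and *Zic5* (0.662) were the lower ones in the control, and *Trp73* and *Zic1* (0.461) in the knockout. *Ebf3* had ratios of 1.26 (1.15 to 1.37) and 1.21, and *Emx2* of 1.26 (1.10 to 1.44) and 1.48 (1.23 to 1.79). Neuropeptides and their processing enzymes gave 1 higher, *Pcsk1*, and 2 lower of 11 in the control (9.09% and 18.2% beside the same shares, median 1.10) and 1 of each of 8 in the knockout (median 1.10). *Pnoc*, the nociceptin precursor, stood with *Penk* on the low side, at 120 against 237 CPM (0.508, 0.393 to 0.648) and at 183 against 307 (0.597, 0.432 to 0.806).

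Axon guidance genes gave 3 higher and 2 lower of 25 in the control (12% and 8% beside 3.49% and 6.73% of all genes, median 0.973) and 0 higher and 2 lower of 16 in the knockout (12.5% lower beside 6.17%, median 1.02). *Robo1*, a Slit receptor, stood at 706 against 399.6 CPM (1.77, 1.58 to 1.97) and at a ratio of 1.18 (0.957 to 1.44). *Sema6a*, a transmembrane semaphorin, stood at 570 against 345 CPM (1.65, 1.46 to 1.86) and at 1.19 (0.970 to 1.44), so that neither was called in the knockout. *Epha4* (0.566) and *Unc5c* (0.647) were the lower ones of the control. Synaptic adhesion genes gave 1 higher and 3 lower of 22 in the control (4.55% and 13.6%, median 0.994) and 1 of each of 17 in the knockout (median 1.01). *Flrt3*, a ligand of latrophilins, stood at 582.5 against 361 CPM (1.61, 1.43 to 1.82) and at a ratio of 1.32 (1.07 to 1.61), and *Tenm2*, a teneurin, at 95.9 against 173 CPM (0.555, 0.415 to 0.730) and at 0.519 (0.332 to 0.777).

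Potassium channel genes gave 2 higher and 5 lower of 24 in the control (8.33% and 20.8% beside 3.49% and 6.73% of all genes) and 2 higher and 1 lower of 13 in the knockout (15.4% and 7.69% beside 5.17% and 6.17%), with medians of 0.999 and 1.01. *Kcnd3*, a subunit of A-type channels, stood at 112 against 68.8 CPM in the control (1.62, 1.22 to 2.12). *Kcnt2* was lower in the control (0.631) and higher in the knockout (1.58, 1.15 to 2.13). Sodium, calcium and HCN channel genes gave 0 higher and 2 lower of 19 (10.5% lower, median 1.07) and 1 of each of 11 (9.09% each, median 0.977). *Cacna2d3*, an auxiliary calcium channel subunit, stood at 422 against 643 CPM (0.657, 0.574 to 0.748) in the control and at a ratio of 0.957 in the knockout. *Cacna1b*, the N-type channel, had ratios of 1.32 (1.12 to 1.54) and 1.16 (0.897 to 1.49).

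Among survival genes, neurotrophin and GDNF receptors gave 0 higher and 1 lower of 3 in the control (median 0.683) and 0 of 2 called in the knockout (median 1.01), too few to set beside the 3.49% higher and 6.73% lower of all control genes or the 5.17% and 6.17% of the knockout. *Ntrk2*, the receptor of BDNF, stood at 1493 against 1118 CPM (1.33, 1.24 to 1.43) and at a ratio of 1.13 (0.998 to 1.27). Of the Bcl2 family 4 were compared in the control and 0 were called (median 0.732), from 0.706 (0.418 to 1.13) for the antiapoptotic *Mcl1* to 0.766 (0.445 to 1.24) for the proapoptotic *Bax*. The summed level had a ratio of 0.941 in the control and stood at 370 against 263 CPM in the knockout (1.41, 1.12 to 1.76). The antiapoptotic *Bcl2*, named after its values were seen, stood at 29.7 against 14.8 CPM from 17 and 75 UMIs in the control (2.01, 1.11 to 3.43) and at 39.8 against 14.7 CPM in the knockout (2.71, 1.18 to 5.70). Nuclear-retained RNAs, often taken as a sign of damaged cells, gave 0 of 6 called in the control (median 1.07) and 1 higher of 4 in the knockout (median 1.02), with *Rian* at 1.11 (0.991 to 1.24) and 1.53 and *Miat* at 0.922 (0.674 to 1.23) and 0.703. Of the sex-linked genes 5 and 3 were compared and 0 were called in either library, with medians of 0.947 and 0.874 and control ratios from 0.808 for *Eif2s3y* to 1.07 for *Kdm5d*. Female cells made up 18.8% (10.9 to 29.0) of the chosen and 25.1% of the other control cells, and 58.1% (39.1 to 75.5) and 47.5% in the knockout.

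**Figure D4:**
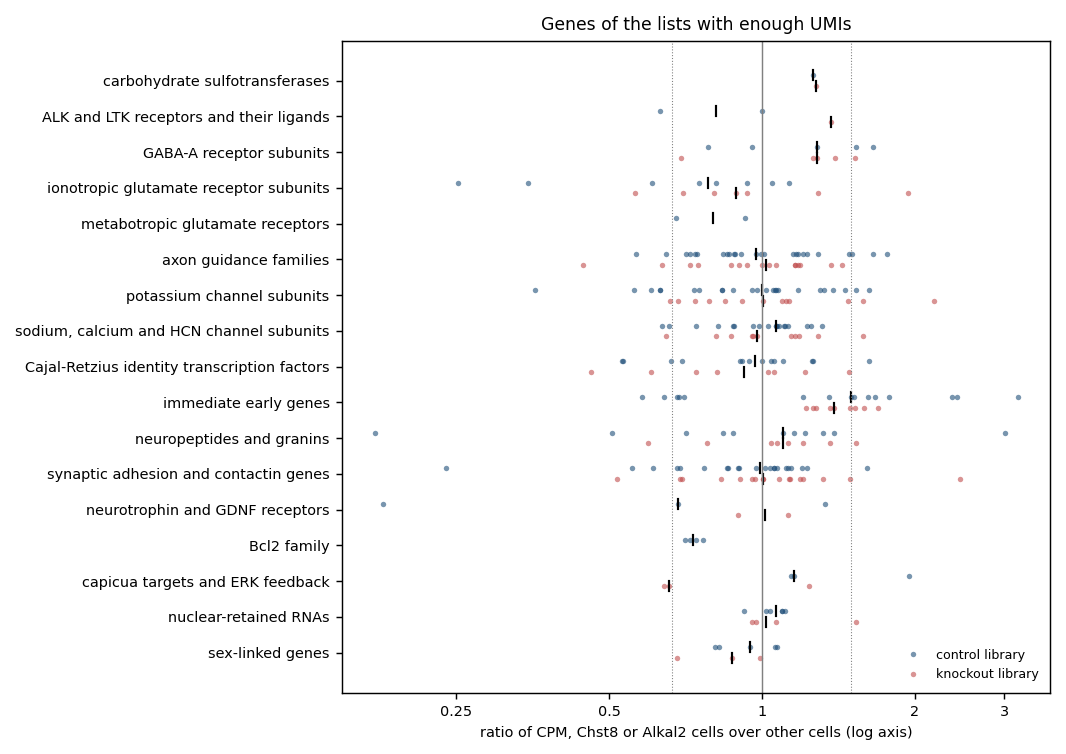
Ratio of CPM in *Chst8* or *Alkal2* cells over the other CR cells (log axis) for the genes of 17 lists in the control and knockout libraries; dots are genes with at least 200 UMIs, black bars are list medians and dotted lines mark 1.5-fold each way. Immediate early genes have medians of 1.5 and 1.39, whereas potassium channel genes lie at 0.999 and 1.01.

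Some genes had a large part of their chosen UMIs in 1 cell. *Galntl6* gave the highest ratios, 4.90 in the control and 4.65 in the knockout, with 61.4% and 56.2% of the chosen UMIs in 1 cell of each library. *Kazn* gave 2.49 in the control, 88.5% of it from 1 cell, and had 0 UMIs in the chosen knockout cells. *Gm16618*, an antisense gene, gave 3.54 with 36.5% in 1 cell, and 0.187 in the knockout. Genes with more than 10% of their chosen UMIs in 1 control cell were kept out of the 14 higher genes.

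The chosen cells were held by *Chst8* alone in 24 control cells, by *Alkal2* alone in 29 and by both in 30, and in the knockout in 7, 17 and 9. *Gabrg3* stood at 649 CPM in the *Chst8* cells and 440.5 in the *Alkal2* cells of the control (ratio 1.47, 1.10 to 1.98) and at 458 against 224 CPM in the knockout (2.04, 1.12 to 3.70), with 563 and 684 CPM in the cells of both genes. *Pde10a* stood at 942 against 783 CPM in the control (1.2, 0.958 to 1.51) and was high in all 3, with 1016 CPM in the cells of both. *Trp73* stood at 345 against 347 CPM in the control and was low in all 3, with 301 CPM in the cells of both. *Lrp1b*, a large endocytic receptor, stood at 1158 against 689 CPM in the control (1.68, 1.34 to 2.11) and at 1433 against 556 in the knockout (2.58, 1.82 to 3.65). *Chsy3*, a chondroitin sulfate synthase, went the other way at 287 against 518 CPM (0.553, 0.385 to 0.786) and 279 against 605 (0.460, 0.240 to 0.823). The cells carrying only 1 of the 2 genes thus had *Pde10a* and *Trp73* levels within counting error in the control. They stood apart in *Gabrg3*, *Lrp1b* and *Chsy3*. The last 2 were picked among the genes that differed most between these cells in the control, so their control ratios follow that choice. Their knockout ratios rest on 7 cells with *Chst8* alone. *Gnb1* (2.26 and 1.00) and *Fbxl2* (0.480 and 1.60), picked in the same way, did not repeat their control difference in the knockout.

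The limit on *Cck* left out 20 control and 6 knockout cells with at least 2 UMIs of *Chst8* or *Alkal2*. Beside the other *Cck* cells these stood higher in genes that led the chosen cells. *Pde10a* was at 598 against 246 CPM in the control (2.43, 1.90 to 3.09) and at 630 against 326 in the knockout (1.93, 1.23 to 2.95). *Ppargc1a* was at 586 against 234 CPM in the control (2.51, 1.95 to 3.20) and at 495 against 186 in the knockout (2.67, 1.56 to 4.40). *Brinp3* stood near the level of the other *Cck* cells, at 37.4 against 28.0 CPM in the control (1.33, 0.450 to 3.30), beside 283 CPM in the chosen cells.

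The study asked how loss of *Cic* acts on CR cells. *Cic* itself stood at 59.7 CPM in the chosen knockout cells and 54.1 in the chosen control cells (1.10, 0.554 to 2.11) and at 50.4 against 56.8 in the other CR cells (0.888, 0.702 to 1.12). The 3′ tags of this assay need not lie in the deleted exons, so that this value checks nothing. *Etv4*, an ETS factor gene repressed by capicua, gave 13 UMIs in the chosen knockout cells (51.8 CPM) and 0 in the chosen control cells, at least 6.96-fold higher by the exact lower 95% limit of the ratio and 9.89-fold above a floor of 3 UMIs over the group. In the other CR cells it stood at 74.9 against 2.56 CPM (29.2, 16.6 to 56.1). Among male cells alone, *Etv4* of the chosen cells was 7.95-fold above the same floor (lower limit 4.68), and among female cells 1.97-fold (lower limit 1.22), where few control cells were chosen. *Etv4* was thus higher in the library labelled knockout in both kinds of cells.

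*Etv5*, the related ETS gene, stood at 83.6 against 31.4 CPM in the chosen cells (2.66, 1.35 to 5.30) and at 70.5 against 13.2 in the others (5.34, 3.97 to 7.24). In the control library it was higher in the chosen than in the other CR cells (2.38, 1.33 to 4.05). *Vgf*, which encodes a secreted neuropeptide precursor, stood at 79.6 against 26.2 CPM (3.04, 1.48 to 6.39) and at a ratio of 3.78 (2.85 to 5.04) in the others. *Fgf1*, a fibroblast growth factor, gave 5 against 7 UMIs in the chosen cells, or 19.9 against 12.2 CPM (1.63, 0.408 to 5.97). It stood at 46.5 against 1.77 CPM in the others (26.2, 13.2 to 59.1). Its control level was thus higher in the chosen than in the other CR cells, from 7 and 9 UMIs, and its knockout level was lower. The list of capicua targets summed to 764.5 against 474 CPM in the chosen cells (1.61, 1.33 to 1.95) and to a ratio of 2.62 (2.46 to 2.80) in the others. Within the control library this list was higher in the chosen cells (474 against 365 CPM, 1.30, 1.14 to 1.48, with 1 of 3 compared genes higher, *Arhgap26*, and *Spry2* lowest at 1.14, beside 3.49% of all genes), and within the knockout library lower (764.5 against 957 CPM, 0.799, 0.685 to 0.927, with 2 of 3 compared genes lower, beside 6.17% of all genes). This list was drawn up with the study's results known and is no independent evidence of its direction, and the difference between chosen and other cells was not tested.

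Between the libraries, 70 of 1567 genes (4.47%) were at least 1.5-fold higher in the chosen knockout cells and 86 (5.49%) were lower, where the other CR cells gave 7 (0.447%) and 12 (0.766%) over the same genes. The chosen cells are fewer, and their counting error alone spreads the ratios more widely. Sex composition differed between the libraries, and the genes below were not split by the sex reading of the cells. *Xist*, the female-specific RNA, was among the highest at 924 against 401 CPM (2.30, 1.91 to 2.78). *Camk1d*, a calmodulin-dependent kinase, stood at 1047 against 513 CPM (2.04, 1.72 to 2.42) with a ratio of 1.97 in the others. The droplets of free RNA held 4512 CPM of *Camk1d* in the knockout and 2379 in the control, more than either kind of cell, and the part of free RNA in this ratio was not tested. *Nkain3* stood at 1214 against 678 CPM (1.79, 1.54 to 2.08), *Atp8a1* at 283 against 126 (2.25, 1.60 to 3.17) and *Kcnd2* at 307 against 148 (2.07, 1.5 to 2.85), with ratios of 1.17, 0.959 and 0.791 in the others. *Camk1d* thus had a like ratio in both kinds of cells, and the last 3 lay nearer to or below 1 in the others, a difference that was not tested.

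Lower in the chosen knockout cells were *Plcl1*, a phospholipase C-like protein of GABA-A receptor trafficking, at 131 against 460 CPM (0.285, 0.192 to 0.411) with 0.646 (0.590 to 0.706) in the others, and the antisense gene *Gm16599* at 83.6 against 209 CPM (0.400, 0.239 to 0.639) with 0.689. *Pcsk1* stood at 159 against 340 CPM (0.468, 0.325 to 0.661), *Dner* at 398 against 734 (0.542, 0.432 to 0.676) and *Fam49a* at 179 against 363 (0.494, 0.350 to 0.685), with ratios of 0.920, 0.958 and 0.822 in the others. *Pcsk1* and *Dner* are thus genes high in the chosen control cells that stood closer to the other CR cells in the knockout. Both were named for a high control ratio and a low ratio between the libraries. That choice favours this pattern, which was not tested. *Pde10a* had a ratio of 0.861 (0.727 to 1.02) in the chosen cells and of 1.35 (1.23 to 1.47) in the others. Of the rule's own genes *Chst8* had ratios of 0.632 (0.410 to 0.948) and 0.555, and *Alkal2* of 1.14 (0.876 to 1.48) and 0.931. *Gabrg3*, which the rule did not name, had ratios of 0.763 (0.606 to 0.955) and 0.905 (0.824 to 0.994). *Reln* (0.977 and 0.968) and *Trp73* (0.942 and 1.08) were close to 1 in both.

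**Figure D5:**
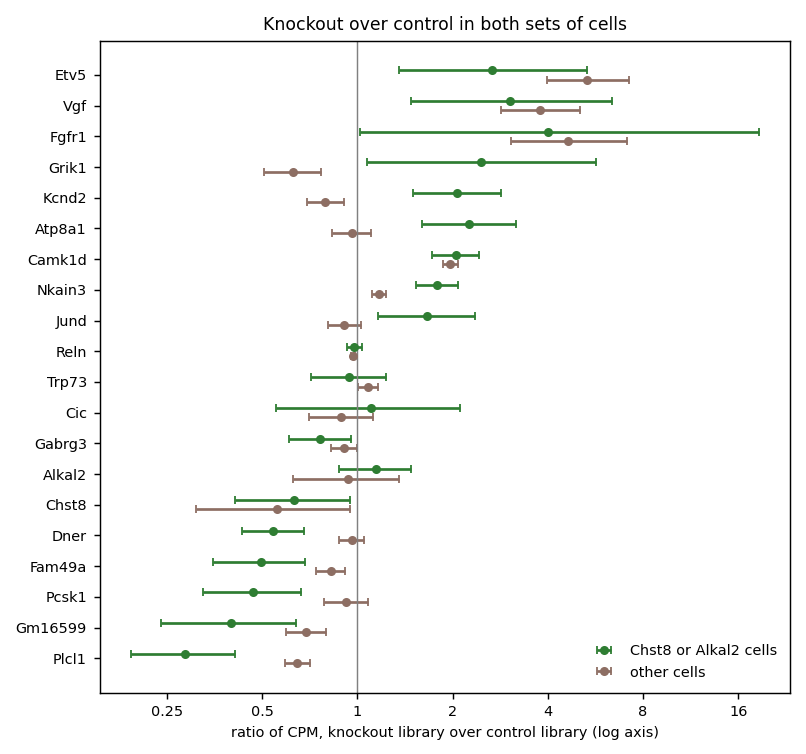
Ratio of CPM in the knockout over the control library (horizontal log axis) for 20 genes, in *Chst8* or *Alkal2* cells and in the other CR cells, with 95% intervals. *Pcsk1* (0.468 and 0.920) and *Kcnd2* (2.07 and 0.791) lie apart in the 2 kinds of cells. *Etv4*, which had no UMI in the chosen control cells, is not drawn.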

How the data were processed

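Single-cell suspensions were prepared with papain and sorted for living tdT-expressing cells, and libraries were made with a droplet-based 3′ kit. The authors deposited raw UMI counts per gene and barcode, unfiltered, as sparse matrices of 32285 genes for 1 library per genotype. The file headers name Cell Ranger 4, while the submitters' processing notes name Cell Ranger 8.0.1 and mm39, and the methods name another build, so that the build behind the counts is uncertain. The use of strand is not given in the sources used here, so that overlapping and antisense genes cannot be told apart. Positions are from GENCODE M21 (GRCm38), where 32235 gene identifiers matched.

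The 2 libraries held 16336796 and 6777071 UMIs over all barcodes. Of barcodes with at least 2000 UMIs (1011 control, 406 knockout), 1003 and 391 passed the mitochondrial limit, 995 and 380 also the *Reln* limit, and 916 and 349 also the limit of 1.8% on oxidative phosphorylation genes, with 5916507 and 2414323 UMIs. Counts were summed over cells, scaled to 1000000 outside mitochondrial and ribosomal protein genes, and given with exact Poisson intervals. Ratios carry exact conditional intervals and shares Clopper-Pearson intervals at 95%. No test between genotypes was possible with 1 library each.

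Cells, gene lists and the rule were chosen with earlier results of these data known. Named were the 14 highest and 10 lowest genes of the control, ordered by the closer bound of the interval to 1, with 200 UMIs or more and at most 10% of the UMIs (of chosen cells for higher genes, of others for lower genes) in 1 cell, and between libraries the 5 highest and 5 lowest with at least 100 UMIs. Knockout values of genes named from the control are given also where they had fewer than 200 UMIs there. In each list the genes with the highest and lowest control ratio were added. Genes outside this rule were named after their values were seen. A few genes of the lists are not reported here. No doublets were removed. Scrublet, used as an alternative, marked 8 of 1003 control and 1 of 391 knockout cells. Calculations used Python 3.11.15, numpy 2.4.6, scipy 1.17.1, pandas 2.3.3 and scanpy 1.11.5, and were checked on simulated data. Other thresholds, scalings, depths and quality limits were tried as alternatives.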

Additional observations from a re-analysis of the deposited data

Results flagged for a closer look

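A few values lay on opposite sides of 1 in the 2 libraries, each comparing *Chst8* or *Alkal2* cells with the other CR cells. *Kazn* had a ratio of 2.49 in the control, 88.5% of it from 1 cell, and of 0.0 in the knockout. *Gm16618* had 3.54 and 0.187, with 36.5% of its chosen control UMIs in 1 cell. *Nkain3* had 0.798 in the control and 1.22 in the knockout. The summed synaptic adhesion genes had 0.914 and 1.08, the summed capicua targets 1.30 and 0.799, and the summed nuclear-retained RNAs 1.04 and 0.967. Between knockout and control, *Grik1* had a ratio of 2.46 in the chosen cells, where 1 knockout cell gave 64.3% of its UMIs, and of 0.625 in the other CR cells, and *Kcnd2* had 2.07 and 0.791. None of these differences between libraries or kinds of cells was tested, since each genotype was 1 library.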

How the results depend on the processing

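No paired analysis was possible because each genotype was 1 library, and for the same reason no replicate could be left out. Of the summary results under all alternatives, 130 values stayed close (counts within 1.5-fold, other values within their interval), 66 moved further and 1 changed direction. For the 48 ratios of named genes these numbers were 804, 107 and 1, where a change of direction was read only in ratios past 1.5-fold and the 1 was *Ppargc1a* in female control cells (0.968). Knockout ratios nearer to 1 also crossed it: *Angpt1* reached 1.26 in female cells, *Kcnmb2* 1.34 in male cells and *Dscam* 0.920 against others matched in depth, and *Cntnap5b*, *Grik1* and *Slc43a2*, at about 1, lay on either side. Every cause was left untested except where fewer cells or genes enter by construction. The share of chosen cells followed the threshold. In the control it was 18.8% with at least 1 UMI, 4.91% with at least 3, 3.60% with at least 2 of *Chst8*, 4.69% with at least 2 of *Alkal2* and 11.2% without the limit on *Cck*, and in the knockout 19.2%, 5.16% and 2.87% for the first 3. The *Gabrg3* ratio in the control was 1.29 with at least 3 UMIs, 1.34 with at least 2 of *Alkal2*, 1.44 without the limit on *Cck*, 1.91 against others matched in depth and 2.43 in female cells. In the knockout it was 1.77 with at least 3 UMIs, 2.69 with at least 2 of *Chst8*, 1.74 in cells chosen on counts thinned to 2000 UMIs with at least 1 UMI and no *Cck*, 1.8 against others matched in depth and 1.11 in female cells. With the counts themselves thinned, the control ratio of *Alkal2* by *Chst8* was 0.836 (1 and 74 UMIs) and that of *Chst8* by *Alkal2* was 1.67 (2 and 64 UMIs), or 1.76 with at least 1 UMI. In the knockout both thinned ratios with at least 2 UMIs were 0 (0 against 31 and 0 against 11 UMIs), with upper limits of 21.3 and 16.2. The *Etv4* ratio to the floor in the chosen cells was 6.58 with at least 3 UMIs, 5.12 with at least 2 of *Chst8*, 5.93 with at least 2 of *Alkal2*, 5.92 in cells chosen on those thinned counts and 1.97 in female cells, and no mean over cells was given since the control was at 0.

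Counts of genes past 1.5-fold moved by more than 1.5-fold under some settings and stayed within that limit under others. In the control the 173 higher genes became 360 with a minimum of 100 UMIs, 2259 with a minimum of 3, 29 at 2-fold, 105 with at least 1 UMI of the rule's genes, 280 with at least 3, 345 with at least 2 of *Chst8*, 308 after subtracting free RNA, 52 of 959 against others matched in depth and 72 in female cells. The 334 lower genes became 870, 4928, 57, 160, 519, 640, 590, 16 of 959 and 108 in the same order, 532 with at least 2 of *Alkal2*, 93 of 3443 without genes with over 10% of the chosen UMIs in 1 cell, a limit that lower genes with few such UMIs fail more often by construction, and 222 against others with fewer than 2 *Cck* UMIs. In the knockout the 114 higher genes became 301 with a minimum of 100 UMIs, 2590 with a minimum of 3, 26 at 2-fold, 14 of 562 without genes with over 10% in 1 cell, 71 with at least 1 UMI, 215 with at least 2 of *Chst8*, 38 of 525 against others matched in depth, 68 in male and 40 in female cells. The 136 lower genes became 510, 4953, 23, 10, 64, 425, 24, 80 and 49 in the same order, 269 with at least 3 UMIs and 85 against others with fewer than 2 *Cck* UMIs. The settings on thinning with at least 1 UMI, on *Etv4* by sex and without genes held by 1 cell were chosen after seeing the data. Free RNA was at most 20.4% of the UMIs in control cells and 10.9% in knockout cells, limits set by *Mbp*, and Scrublet marked 2 chosen control cells and 1 chosen knockout cell.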
